A study of Mus musculus with 2 samples.

Results

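The Kdm5 and Kdm6 genes encode histone lysine demethylases that exist as X-linked and autosomal paralogs. Of the 25235 genes listed in either library, 5 were selected by name for these families, namely Kdm6a and Kdm5c on the X chromosome and Kdm6b, Kdm5a and Kdm5b on autosomes. All 5 had at least 20 SNP-overlapping reads in both libraries, as did 12736 genes in all.

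Expression was measured by single-nucleus RNA sequencing of nuclei isolated from frozen heart tissue and then sorted. The mice were female F1 hybrids with a C57BL/6J (BL6) mother and a CAST/EiJ (CAST) father. There was 1 adult heart at 9 weeks and 1 aged heart at 78 weeks. Reads over single-nucleotide differences between the strains (SNPs) were assigned to the maternal BL6 or the paternal CAST allele. Only nuclei whose X-linked reads came predominantly from BL6, so that the BL6 X was the active X (Xa) and the CAST X the inactive X (Xi), were pooled by the authors into 1 library per age. The labels give the genotype of both mice as C57BL/6JxCAST/EiJ, whereas their breed field names the Xist-mutant cross. A figure legend of the study describes the mice used for single nuclei as wild type. No age has a replicate, so no test between ages was possible, and all intervals are 95% intervals that cover counting error alone.

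In female mammals 1 X chromosome per cell is silenced by the Xist RNA, and genes that remain transcribed from the Xi are called escapees. KDM6 enzymes remove methyl groups from lysine 27 of histone H3 (H3K27), the repressive mark written by Polycomb repressive complex 2 (PRC2). KDM5 enzymes remove methylation from lysine 4 of histone H3 (H3K4), a mark of active promoters. Kdm6a (also called UTX) and Kdm5c are known escapees, and both have homologs on the Y chromosome, Uty and Kdm5d. Neither Uty nor Kdm5d was listed in these female libraries.

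Depth was 9747535 SNP-overlapping reads from 24015 genes at 9 weeks and 5805807 from 22691 genes at 78 weeks. Levels are given in RPM, the reads of a gene per 1000000 reads of its library. The allelic ratio is the BL6 share of a gene's reads, so that 1 stands for reads from BL6 alone. Summed autosomal reads had an allelic ratio of 0.534 at 9 weeks and 0.538 at 78 weeks, equal to 87.3 and 86.0 CAST reads per 100 BL6 reads. These values serve as the reference for genes read from both alleles. The median X-linked allelic ratio was 0.976 in each library, over 395 and 348 genes with at least 20 reads and with Xist and Tsix left out.

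Kdm6a lies at chrX:18162364-18279936 of GRCm38 on the plus strand and spans 118 kb. It is an H3K27 demethylase and a subunit of the KMT2C and KMT2D complexes that methylate H3K4. At 9 weeks 2008 reads of Kdm6a were BL6 and 1747 were CAST, and at 78 weeks 869 were BL6 and 787 CAST. Its allelic ratio was 0.535 (0.519 to 0.551) at 9 weeks and 0.525 (0.50 to 0.549) at 78 weeks. Both intervals contained the summed autosomal allelic ratio of the same library, and 49.6% and 45.3% of autosomal genes had a lower allelic ratio than Kdm6a. Per allele, CAST reads of Kdm6a numbered 87.0 (81.6 to 92.8) per 100 BL6 reads at 9 weeks, and 90.6 (82.1 to 99.8) at 78 weeks. In a library in which nearly all X-linked reads were of the Xa, the split of Kdm6a reads thus lay within counting error of that of the summed autosomes.

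Kdm6b (JMJD3), the autosomal H3K27 demethylase known for its induction by inflammatory and developmental signals, lies at chr11:69398508-69418147 on the minus strand. It was the member with the fewest reads, with 30 reads from BL6 and 36 from CAST in the adult heart, and 36 and 41 in the aged heart. The allelic ratio of Kdm6b was 0.455 (0.331 to 0.582) and 0.468 (0.353 to 0.585). The allelic ratio of Kdm6a exceeded that of Kdm6b by 0.0802 (−0.0402 to 0.196) at 9 weeks and by 0.0572 (−0.0557 to 0.167) at 78 weeks. Both intervals contain 0, so that no difference was detectable at the depth of Kdm6b.

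Kdm5c lies at chrX:152233197-152279102 on the plus strand and spans 45.9 kb. Its product is an H3K4 demethylase with a known role in neurons. For Kdm5c 905 BL6 against 441 CAST reads were counted at 9 weeks, and 819 against 449 at 78 weeks. The allelic ratio was 0.672 (0.647 to 0.697) at 9 weeks and 0.646 (0.619 to 0.672) at 78 weeks, above the summed autosomal allelic ratio in each. Per 100 BL6 reads there were 48.7 (43.4 to 54.7) CAST reads at 9 weeks and 54.8 (48.8 to 61.6) at 78 weeks. The Xi allele of Kdm5c therefore gave fewer reads than its Xa allele in both hearts, whereas the interval of Kdm6a contained the autosomal value.

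The autosomal paralogs of Kdm5c are Kdm5a (chr6:120364099-120444574, plus strand), first known as a partner of the retinoblastoma protein, and Kdm5b (chr1:134560178-134632878, plus strand), known from proliferating and tumor cells. Kdm5a had 951 reads from BL6 and 813 from CAST at 9 weeks, and 603 and 539 at 78 weeks, which gave an allelic ratio of 0.539 (0.516 to 0.563) and 0.528 (0.499 to 0.557). Kdm5b had 551 reads from BL6 and 435 from CAST at 9 weeks, and 416 and 280 at 78 weeks, with an allelic ratio of 0.559 (0.527 to 0.590) and 0.598 (0.560 to 0.634). The interval of Kdm5b in the aged library lay above the summed autosomal allelic ratio, so an autosomal gene of this family also departed from it. Strand-specific counting is not stated in the sources used here. Kdm5a overlaps the oppositely oriented Ccdc77 by 271 bp and Kdm5b overlaps Mgat4e by 1559 bp, and reads in those stretches could be counted for either gene. Ccdc77 had 420 and 211 reads and Mgat4e had 3 and 6. RefSeq also places Gm51903 over 2635 bp of Kdm6b, while Kdm6a and Kdm5c overlap no other locus.

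The allelic ratio of Kdm5c exceeded that of Kdm5a by 0.133 (0.0988 to 0.167) at 9 weeks and by 0.118 (0.0786 to 0.157) at 78 weeks. Against Kdm5b the excess was 0.114 (0.0736 to 0.153) at 9 weeks and 0.0482 (0.00352 to 0.0932) at 78 weeks. The second of these was the smaller, and its lower bound was close to 0. Between the X-linked members, the allelic ratio of Kdm5c was above that of Kdm6a by 0.138 (0.108 to 0.167) and 0.121 (0.0852 to 0.156). The autosomal Kdm5a and Kdm5b themselves differed by −0.0197 (−0.0583 to 0.0191) at 9 weeks and by −0.0697 (−0.116 to −0.0229) at 78 weeks.

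**Figure D1:**
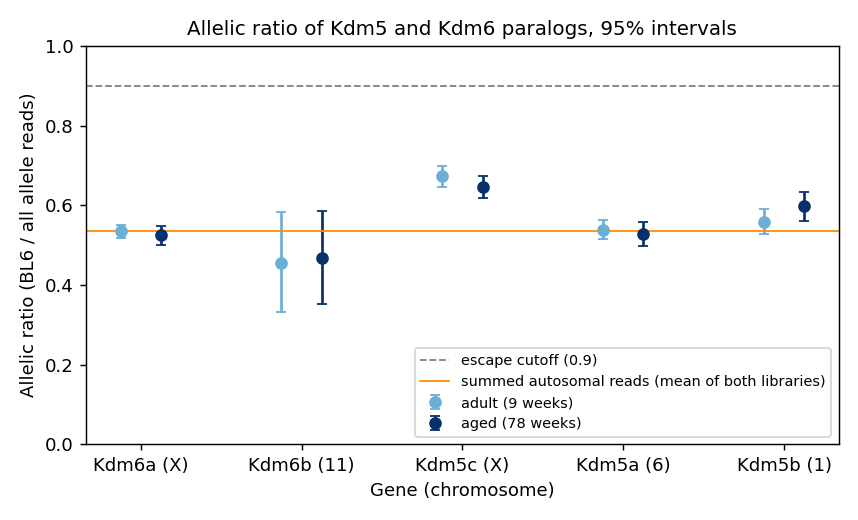
Allelic ratio (BL6 reads over all allele-assigned reads, y axis) of the Kdm5 and Kdm6 genes (x axis, chromosome in parentheses) in the adult and the aged library, with exact 95% intervals; the dashed line marks an allelic ratio of 0.9 and the orange line the summed autosomal reads. Kdm6a at 0.535 and 0.525 sits on the autosomal line, Kdm5c at 0.672 and 0.646 lies between that line and 0.9, and the intervals of Kdm6b are the widest.

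An allelic ratio of 0.9 or lower is the study's definition of escape. It was met by 37 of 395 X-linked genes (9.37%) at 9 weeks and by 41 of 348 (11.8%) at 78 weeks, among them Kdm6a and Kdm5c in both. Ordered from the lowest allelic ratio, Kdm6a was number 2 on the X chromosome at 9 weeks and number 3 at 78 weeks, and Kdm5c was number 7 and number 9. With at least 100 reads required, which left 234 and 195 X-linked genes, Kdm6a had the lowest allelic ratio in both libraries and Kdm5c was number 5 and number 4.

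Kdm6a and Kdm5c were also the X-linked genes with the most Xi reads in each library. Kdm6a held 22.8% (21.8 to 23.7) of all X-linked CAST reads at 9 weeks and 15.6% (14.7 to 16.7) at 78 weeks, and Kdm5c 5.75% (5.24 to 6.29) and 8.93% (8.15 to 9.75). Together they held 28.5% (27.5 to 29.5) of the 7673 X-linked CAST reads of the adult library and 24.6% (23.4 to 25.8) of the 5030 of the aged library, with Xist and Tsix left out. Their share of the X-linked BL6 reads was 1.15% and 1.19%. By BL6 reads Kdm6a ranked number 12 of 707 X-linked loci at 9 weeks and number 29 of 654 at 78 weeks, and Kdm5c number 46 and number 31.

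CAST reads made up 2.94% (2.87 to 3.00) of the X-linked reads at 9 weeks and 3.43% (3.34 to 3.52) at 78 weeks. Without Kdm6a and Kdm5c these shares were 2.14% (2.09 to 2.20) and 2.64% (2.56 to 2.72). No correction of these counts for free RNA, including RNA of nuclei with a CAST Xa, is given in the sources used here, and its part in the CAST reads of Kdm6a and Kdm5c was not tested. The nuclei were chosen by their X-linked allelic ratio, to which reads of Kdm6a and Kdm5c themselves contributed.

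Kdm6a was lower and Kdm5c higher in the aged than in the adult library, and in each case both alleles moved in the same direction. The total of Kdm6a was 385 RPM (373 to 398) at 9 weeks against 285 RPM (272 to 299) at 78 weeks, an aged-to-adult ratio of 0.740 (0.698 to 0.785). Its BL6 reads went from 206 to 150 RPM, a ratio of 0.727 (0.670 to 0.787), and its CAST reads from 179 to 136 RPM, a ratio of 0.756 (0.694 to 0.823). The intervals of the alleles overlapped. The lower level of Kdm6a was thus seen on the Xa and on the Xi allele. With nuclei pooled over all cell types, fewer cells of a type and less RNA per cell cannot be told apart.

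Kdm5c totalled 138 RPM (131 to 146) at 9 weeks against 218 RPM (207 to 231) at 78 weeks, a ratio of 1.58 (1.46 to 1.71). Its BL6 reads went from 92.8 to 141 RPM, a ratio of 1.52 (1.38 to 1.67), and its CAST reads from 45.2 to 77.3 RPM, a ratio of 1.71 (1.5 to 1.95). The ratio of the Xi allele had the higher estimate, and the intervals overlapped. Among all genes, 16.1% had a lower aged-to-adult ratio than Kdm6a and 75.9% a lower one than Kdm5c, so neither lay in the outermost 10% of genes.

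**Figure D2:**
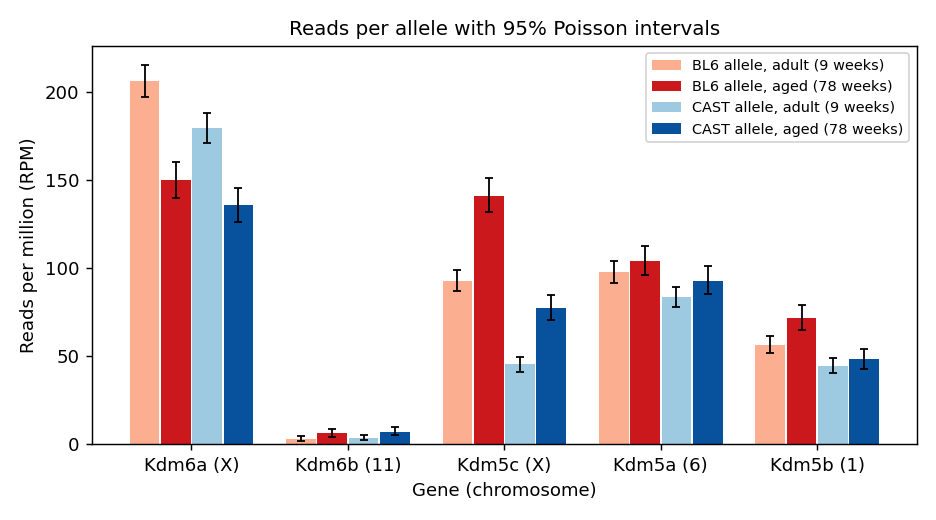
RPM of the BL6 and the CAST allele (y axis) of each Kdm5 and Kdm6 gene (x axis) in the adult and the aged library, 1 library per bar, with exact 95% Poisson intervals. Both Kdm6a alleles are lower in the aged library (206 to 150 and 179 to 136 RPM), both Kdm5c alleles are higher (92.8 to 141 and 45.2 to 77.3 RPM), and Kdm6b stays below 10 RPM per allele.

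Kdm6b totalled 6.77 RPM (5.24 to 8.61) at 9 weeks against 13.3 RPM (10.5 to 16.6) at 78 weeks, a ratio of 1.96 (1.39 to 2.76). The BL6 allele had a ratio of 2.01 (1.21 to 3.39) and the CAST allele of 1.91 (1.19 to 3.08). The paralogs that remove H3K27 methylation therefore had opposite directions, although Kdm6b rests on 66 and 77 reads.

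Kdm5a and Kdm5b differed less between the libraries. Kdm5a totalled 181 RPM (173 to 190) and 197 RPM (185 to 208), a ratio of 1.09 (1.01 to 1.17). Its alleles had ratios of 1.06 (0.960 to 1.18) for BL6 and 1.11 (0.996 to 1.24) for CAST. Kdm5b totalled 101 RPM (94.9 to 108) and 120 RPM (111 to 129), a ratio of 1.19 (1.07 to 1.31). Its BL6 ratio was 1.27 (1.11 to 1.44) and its CAST ratio 1.08 (0.927 to 1.26). Both genes lay near the middle of all genes, with 43.4% of genes having a lower ratio than Kdm5a and 51.5% a lower one than Kdm5b.

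These ratios have to be read against the other genes, since the median aged-to-adult ratio of the 12736 genes was 1.17, with an interquartile range of 0.865 to 1.56. Over 344 X-linked genes, Xist and Tsix included, the median was 1.06 and the interquartile range 0.794 to 1.33. Kdm6a lay below that range and Kdm5c above it. A fold of at least 1.5 higher in the aged library was reached by 2 of the 5 members, Kdm6b and Kdm5c, and by 28.0% of all genes. None of the members was lower by 1.5-fold, against 11.8% of all genes. Scaling by the median ratio of autosomal genes instead of the sum of reads shifted all log2 ratios by 0.21. On that scale 18.0% of all genes were lower and 18.4% higher by 1.5-fold. Kdm6a was then at 0.640 (0.604 to 0.678), past 1.5-fold, and Kdm5c at 1.37 (1.26 to 1.48), no longer past it. Kdm5a changed direction, to 0.939 (0.871 to 1.01).

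**Figure D3:**
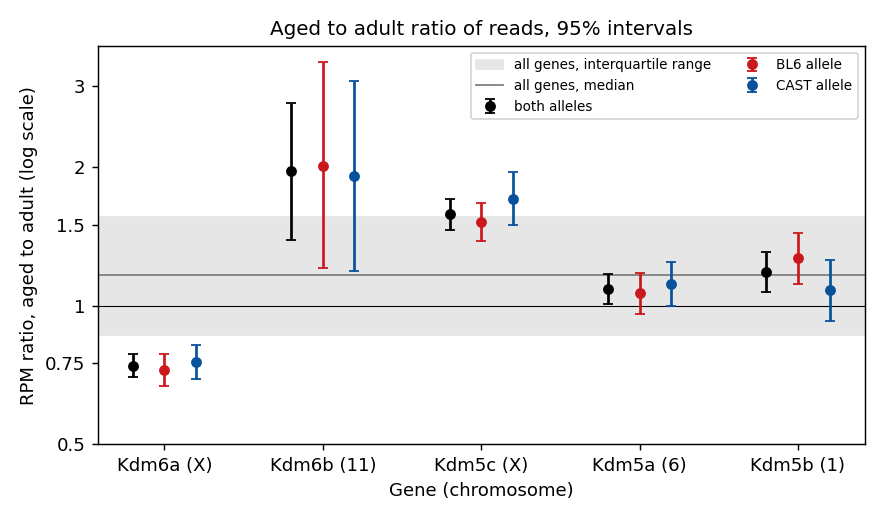
Aged-to-adult ratio of RPM (y axis, log scale) for both alleles together, the BL6 allele and the CAST allele of each Kdm5 and Kdm6 gene (x axis), with exact 95% intervals; the grey band is the interquartile range of all 12736 genes and the grey line their median of 1.17. Kdm6a lies below the band at 0.740, the Kdm5c total lies at its upper edge at 1.58, and the alleles of each gene overlap in their intervals.

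Compared per kb of locus, Kdm6a had 3.28 RPM per kb (3.17 to 3.38) and Kdm5c 3.01 (2.85 to 3.17) in the adult library, followed by Kdm5a at 2.25, Kdm5b at 1.39 and Kdm6b at 0.345 RPM per kb. In the aged library the order was Kdm5c at 4.76 RPM per kb (4.5 to 5.03), Kdm5a at 2.44 (2.30 to 2.59), Kdm6a at 2.43 (2.31 to 2.55), Kdm5b at 1.65 and Kdm6b at 0.675. The neighbors Kdm6a and Kdm5c in the adult order had intervals that touched, and Kdm5a and Kdm6a in the aged order overlapped. The number of SNPs per locus is unknown here and enters these levels.

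No member differed in allelic ratio between the hearts by more than counting error. Adult minus aged, the allelic ratio differed by 0.0100 (−0.0188 to 0.0389) for Kdm6a and by 0.0265 (−0.00987 to 0.0628) for Kdm5c. Among 342 X-linked genes that reached 20 reads in each library, 11.7% had a lower allelic ratio and 7.89% a higher allelic ratio in the aged library with an interval that left out 0, and neither Kdm6a nor Kdm5c was among them. For the autosomal members the differences were −0.0130 (−0.172 to 0.147) for Kdm6b, 0.0111 (−0.0260 to 0.0482) for Kdm5a and −0.0389 (−0.0863 to 0.00910) for Kdm5b. No autosomal member had an interval without 0, as 26.5% of 12390 autosomal genes did in either direction.

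The allelic ratio of Kdm6a and Kdm5c was not shared by most loci around them. The nearest locus with enough reads beside Kdm6a was 4930578C19Rik, at a gap of 134 kb. Its BL6 and CAST reads numbered 147 and 55 at 9 weeks and 146 and 20 at 78 weeks. Its allelic ratio was 0.728 (0.661 to 0.788) at 9 weeks, against 0.880 (0.820 to 0.925) at 78 weeks. It differed by −0.152 (−0.229 to −0.0705) adult minus aged, while Kdm6a beside it differed by 0.0100. On the other side of Kdm6a, the mitophagy receptor gene Fundc1 at 590 kb had an allelic ratio of 0.978 in both libraries. Gm39497 had 0.974 and 0.951, and Gm35105 had 0.984 and 0.933, with a difference of 0.0514 (0.0183 to 0.0967). Further out on the side of 4930578C19Rik, LOC100503338 had 0.987 and 1.000 and the sulfotransferase gene Chst7 0.931 and 1.000.

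All 6 loci nearest to Kdm5c had an allelic ratio above 0.9 in both libraries. Iqsec2, which encodes an exchange factor of synapses and ends 7.96 kb before Kdm5c, had an allelic ratio of 0.98 and 0.949. Kantr, a long noncoding RNA that starts 15.7 kb beyond Kdm5c, had 662 reads from BL6 and 16 from CAST at 9 weeks, and 360 and 22 at 78 weeks. Its allelic ratio was 0.976 (0.962 to 0.986) and 0.942 (0.914 to 0.964), a difference of 0.0340 (0.00996 to 0.0635). The cohesin subunit gene Smc1a had 0.973 and 0.986. The ubiquitin ligase gene Huwe1 had 0.988 and 0.973, a difference of 0.0149 (0.00545 to 0.0261). Gpr173 and 3010001F23Rik, with 59 and 44 reads in the adult library, had 1.000 and 0.974 and 0.977 and 1.000. Kdm5c thus stood between loci whose reads were nearly all of the Xa.

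**Figure D4:**
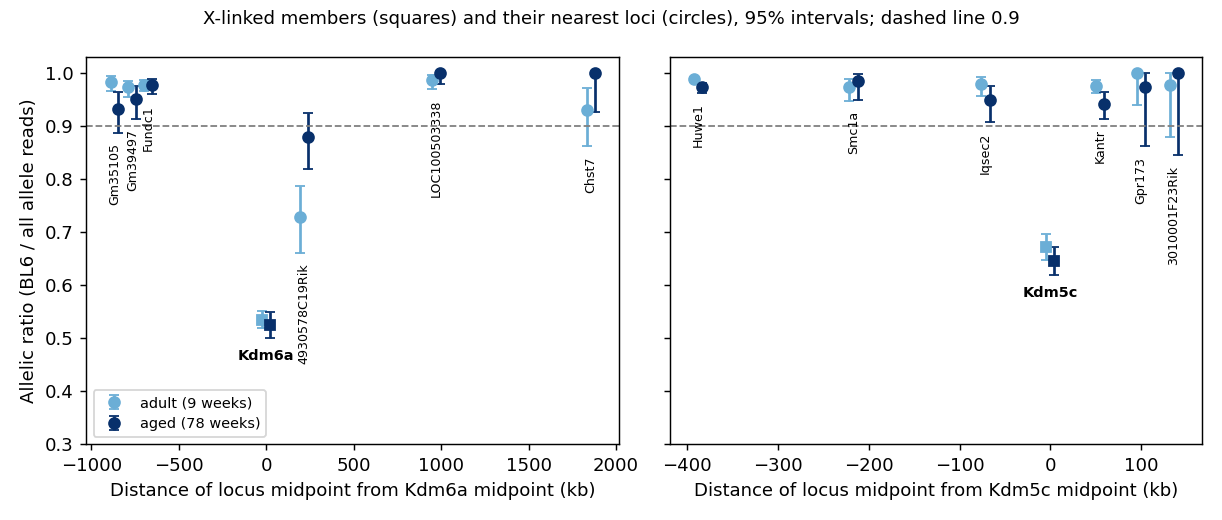
Allelic ratio (y axis) of Kdm6a (left) and Kdm5c (right), drawn as squares, and of the 3 nearest loci on either side with at least 20 reads in both libraries, drawn as circles, against the distance between locus midpoints in kb (x axis); bars are exact 95% intervals, the dashed line is an allelic ratio of 0.9, and the libraries are offset sideways for legibility. Apart from 4930578C19Rik beside Kdm6a (0.728 and 0.880), every neighbor lies above 0.9 while Kdm6a and Kdm5c lie below 0.7.

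Loci around the autosomal members covered a wide range of allelic ratio. Beside Kdm6b, Cntrob had an allelic ratio of 0.349 and 0.312 and Cyb5d1 of 0.850 and 1.000, the latter on 40 and 48 reads. Beside Kdm5b, Adipor1 had 0.274 and 0.415. Beside Kdm5a, Wnk1 had 0.503 and 0.460, and Ccdc77, which overlaps Kdm5a, had 0.683 and 0.664. An allelic ratio as far from the autosomal sum as that of Kdm5c therefore also occurred on autosomes, where 87.6% of genes at 9 weeks and 82.3% at 78 weeks had a lower allelic ratio than Kdm5c.

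Among 194 X-linked genes that reached 100 reads in each library, the genes closest to Kdm6a in allelic ratio were the ribosomal protein gene Rps4x (0.590 and 0.595, a distance of 0.0893 over the 2 libraries), Pbdc1 (0.625 and 0.579, 0.105) and Kdm5c (0.183). Closest to Kdm5c was Eif2s3x, a subunit of a translation initiation factor, with 0.688 and 0.657 and a distance of 0.0190. Pbdc1 and Rps4x followed at 0.0818 and 0.0967. With many more genes near an even split, the autosomal members had closer matches, such as Ccdc91 at 0.00106 from Kdm6b, Nbas at 0.00137 from Kdm5a and Stt3b at 0.00157 from Kdm5b.

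Other X-linked genes with a Y homolog split into those read from both alleles and those read mainly from the Xa. The RNA helicase gene Ddx3x had 56 reads from BL6 and 32 from CAST at 9 weeks, and 33 and 26 at 78 weeks, an allelic ratio of 0.636 and 0.559. Ddx3x and Eif2s3x were the 2 of these 6 genes whose allelic ratio was at most 0.9 in either library. The deubiquitinase gene Usp9x had 0.961 and 0.946, the ubiquitin-activating enzyme gene Uba1 0.904 and 0.964, the transcription factor gene Zfx 0.975 and 0.962, and the splicing regulator gene Rbmx 0.997 and 0.967. The median aged-to-adult ratio of these 6 genes was 1.17, the same as for all genes. Rbmx at 2.26 (1.95 to 2.62) was the 1 of them past 1.5-fold, against 28.0% of all genes that were higher.

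Of 19 other lysine demethylases and related hydroxylases, 17 had enough reads. Of these 17, 3 were higher by at least 1.5-fold, against 28.0% of all genes, 1 was lower, against 11.8%, and 13 were neither. The median ratio of the 17 was 1.21. Jmjd6, which encodes a hydroxylase, was at 2.42 (1.91 to 3.08), Hr at 2.0 (1.39 to 2.90) and Kdm4b, an H3K9 demethylase gene, at 1.70 (1.48 to 1.96). Kdm8 was at 0.641, and the H3K36 demethylase gene Kdm2a at 1.49 (1.39 to 1.59). The ratio of Kdm6a was below that of all of these except Kdm8. Phf8, the X-linked gene of this list, had 679 reads from BL6 and 5 from CAST at 9 weeks, and 398 and 19 at 78 weeks, an allelic ratio of 0.993 and 0.954. Unlike Kdm6a and Kdm5c, Phf8 lay above 0.9 in both. The 16 autosomal genes of the list had an allelic ratio of 0.250 to 0.640 at 9 weeks and 0.410 to 0.736 at 78 weeks.

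**Figure D5:**
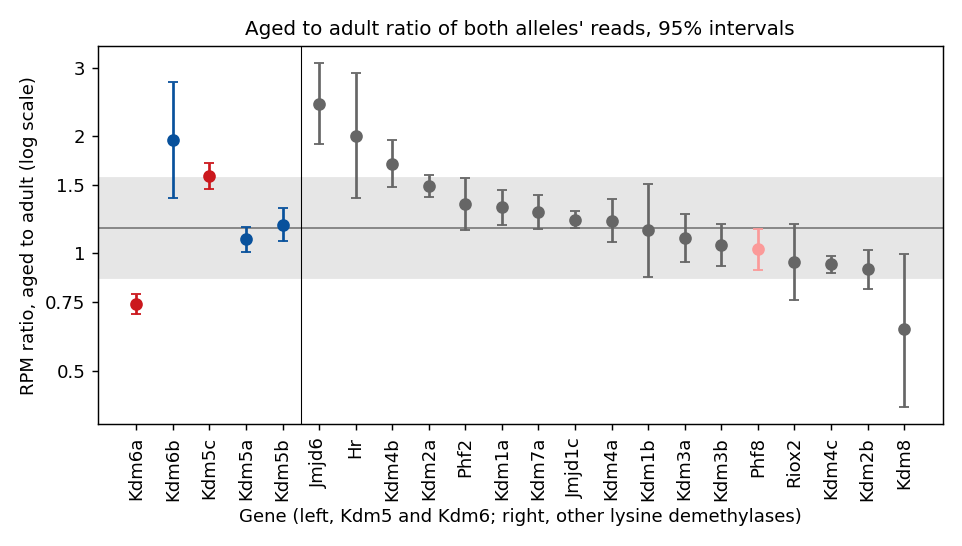
Aged-to-adult ratio of RPM over both alleles (y axis, log scale) for the Kdm5 and Kdm6 genes, left of the vertical line with X-linked genes in red and autosomal genes in blue, and for 17 other lysine demethylases (grey; X-linked Phf8 in light red), with exact 95% intervals; the grey band and line are the interquartile range and the median of all genes. Kdm6a at 0.740 lies below every other gene shown except Kdm8 at 0.641, and Jmjd6 at 2.42 is the highest.

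Genes that act with or against the members were spread around the median of all genes. Of the 17 subunits of H3K4 methyltransferase complexes, 14 had enough reads. Of these, 4 were higher by 1.5-fold, against 28.0% of all genes, 1 was lower, against 11.8%, and 9 were neither. Their median ratio was 1.18. The higher ones were Pagr1a at 2.55 (2.12 to 3.09), Kmt2d at 2.37 (1.90 to 2.96), Paxip1 at 1.66 (1.38 to 2.0) and Wdr5 at 1.55 (1.23 to 1.94). The X-linked Hcfc1 was at 0.568 (0.342 to 0.913), with 71 and 24 reads and an allelic ratio of 1.000 and 0.958.

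Of 11 PRC2 genes, 9 had enough reads, with a median ratio of 1.04. None was higher by 1.5-fold, against 28.0% of all genes, 1 was lower, against 11.8%, and 8 were neither. Ezh2, a catalytic subunit that writes the H3K27 methylation, was at 0.637 (0.553 to 0.731), and its alternative Ezh1 at 0.805 (0.716 to 0.905). Suz12 was at 1.31 (1.21 to 1.43) and Aebp2 at 1.40 (1.22 to 1.60). The X-linked histone-binding subunit gene Rbbp7 had an allelic ratio of 0.982 and 0.970. Of 8 genes for corepressor partners of KDM5 proteins, 3 were higher by 1.5-fold, against 28.0% of all genes, and 5 were neither. Their median ratio was 1.27. The highest were Phf12 at 1.90 (1.67 to 2.16) and Morf4l1 at 1.83 (1.61 to 2.08), followed by Gatad1 at 1.63, while the deacetylase gene Hdac1 was at 1.34 and Emsy at 1.20. Scaled by the median ratio instead, 2 demethylases, 2 H3K4 methyltransferase subunits, 2 corepressor partners, 1 gene with a Y homolog and no PRC2 gene were higher by 1.5-fold, beside 18.4% of all genes on that scale.

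Markers of cell types also differed between the libraries. The summed level of 6 cardiomyocyte markers was 27738 RPM at 9 weeks and 25964 RPM at 78 weeks, a ratio of 0.936, and each of them had at least 20 reads in both. Within that sum Ttn went from 11849 to 6872 RPM, a ratio of 0.580. In contrast, Ryr2 went from 12068 to 13855 RPM, a ratio of 1.15, and Actc1 from 337 to 1385 RPM, a ratio of 4.11. Myl2 had a ratio of 1.80, and the median ratio of the 6 markers was 1.15. The sums of 6 markers each had ratios of 1.56 for fibroblasts (618 to 961 RPM), 1.56 for endothelial cells (559 to 872 RPM), 2.35 for pericytes and smooth muscle cells (207 to 486 RPM) and 1.58 for macrophages (319 to 504 RPM). Past 1.5-fold, 2 cardiomyocyte markers were higher and 1 lower, and 4 fibroblast markers were higher and 1 lower. Higher were also 3 endothelial, 5 pericyte and smooth muscle and 3 macrophage markers. Among all genes, 28.0% were higher and 11.8% lower. The sum of 4 lymphocyte markers went from 19.9 to 7.58 RPM. Skap1, the 1 of them with enough reads, was lower, at 17.6 against 5.17 RPM, and held most of that sum. With fewer than 20 reads each, Cd3e went from 0.923 to 0 RPM, Cd79a from 0.923 to 1.55 RPM and Ms4a1 from 0.410 to 0.861 RPM. On the median scale 2 fibroblast and no macrophage markers were higher by 1.5-fold, and the other counts of markers were the same. On that scale 18.4% of all genes were higher and 18.0% lower. The part of cell composition in the lower level of Kdm6a and the higher levels of Kdm5c and Kdm6b was not tested.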

How the data were processed

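Nuclei of 1 adult and 1 aged heart were sequenced. Per the labels, reads were processed with Cell Ranger 7.1.0 and Seurat 5.1.0. The authors split the alignments by nucleus, pooled nuclei with a BL6 Xa and ran Allelome.PRO2 with RefSeq genes of GRCm38 and SNPs between the strains. The authors deposited, per gene, unnormalized counts of reads over SNPs for BL6 and CAST, with an allelic ratio (a fraction rounded to 2 decimals). A deposited allelic score was not used. The authors removed doublets from their expression matrices with DoubletFinder, and whether the pooled nuclei were limited to those kept is not given in the sources used here. Whether duplicate reads were collapsed, and which strand was counted, is not given in the sources used here, and intervals treat reads as independent. The file of the aged heart is named for another age than its labels, and the labels were used.

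The allelic ratio was recomputed from the reads with exact Clopper-Pearson 95% intervals. Differences in allelic ratio had Newcombe intervals, RPM had exact Poisson intervals and ratios of RPM had exact conditional binomial intervals. Totals of 9747535 and 5805807 reads set the scale, with a minimum of 20 reads per library for counts over genes. Starts in the files are counted from 0, so 1 was added to each. Python 3.11.15, numpy 2.4.6, pandas 2.3.3, scipy 1.17.1 and matplotlib 3.10.9 were used, and the functions were tested on simulated data. The members and all gene lists were chosen with earlier results of these data known.

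Named genes were the members, their Y homologs, the 3 nearest loci on either side with at least 20 reads in both libraries, overlapping loci, the 3 genes nearest in allelic ratio among those with at least 100 reads, and, of each list, X-linked genes and up to 4 genes with the largest ratio whose intervals did not overlap. Kdm8, Gatad1, Cd3e, Cd79a, Ms4a1, Smpx and Med14 are named beside the rule, a choice made once their values were known. Lists comprised lysine demethylases (Riox1 and Riox2 matched by older symbols), H3K4 methyltransferase complexes, PRC2, corepressor partners, genes with a Y homolog and markers of 6 cell types. Alternatives were the deposited allelic ratio, an allelic ratio corrected for the autosomal excess of BL6, 3 other scales, other read minimums and folds, and leaving out overlapping loci.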

Additional observations from a re-analysis of the deposited data

How the results depend on the processing

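No paired analysis was possible because each age has 1 library, and for the same reason no replicate could be left out. Of 107 values recomputed under alternatives, 77 moved by less than their counting interval (or, for counts of genes, by less than 1.5 times) and 29 moved by more. The remaining 1, a ratio whose interval had left out 1, changed direction. The deposited allelic ratio, the scale of autosomal reads and the scale without the 20 genes with most reads moved none of the 107 values.

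Dividing the odds of the allelic ratio by those of the summed autosomal reads gave 0.501 and 0.487 for Kdm6a, 0.642 and 0.611 for Kdm5c and 0.505 and 0.490 for Kdm5a in the adult and aged library, and 0.525 for Kdm5b in the adult library. Scaling by the median ratio by its construction lowers every ratio by the same factor. It gave aged-to-adult ratios of 0.640 for the total, 0.628 for BL6 and 0.654 for CAST reads of Kdm6a. The same ratios were 1.37, 1.31 and 1.48 for Kdm5c. For Kdm5a they were 0.939, 0.92 and 0.962, so that the total and both alleles crossed 1. For Kdm5b the total was 1.02 and the BL6 ratio 1.10, while the CAST ratio crossed 1, to 0.934. The allele ratios that crossed 1 had intervals that contained 1 on the main scale. The number of genes higher by 1.5-fold in the aged library was 3571, and 1747 with at least 100 reads, 5564 at a lower and 1467 at a higher fold, 2343 on the median scale and 2121 without overlapping loci. The number lower was 1500, and 726, 2544, 655, 2297 and 804 under the same alternatives. With at least 100 reads, 19 adult and 14 aged X-linked genes had an allelic ratio of 0.9 or lower.

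Depth limited Kdm6b most, with 66 and 77 reads. With 1 heart per age, differences between animals cannot be told apart from differences between ages.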

Other observations

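After Kdm6a and Kdm5c, the X-linked genes with the most CAST reads were Smpx in the adult and Med14 in the aged library. Smpx, which encodes a small protein of striated muscle, had 1477 reads from BL6 and 278 from CAST at 9 weeks, and 618 and 196 at 78 weeks, an allelic ratio of 0.842 (0.824 to 0.858) and 0.759 (0.728 to 0.788). Med14, a subunit gene of the Mediator complex, had 1644 reads from BL6 and 118 from CAST at 9 weeks, and 951 and 272 at 78 weeks, an allelic ratio of 0.933 (0.92 to 0.944) and 0.778 (0.753 to 0.801). Each was picked for its rank in CAST reads in 1 library, so that its difference between the libraries is a description. Among 342 X-linked genes, 11.7% had a lower and 7.89% a higher allelic ratio in the aged library by an interval without 0. Per library, Smpx held 3.62% of the X-linked CAST reads of the adult and Med14 5.41% of those of the aged library.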
